A study of Homo sapiens with 6 samples.

Results

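Most aldehyde dehydrogenases (ALDH) oxidise aldehydes to acids with NAD or NADP as the cofactor. The family was examined here through 10 of its genes, ALDH1A1, ALDH1A2, ALDH1A3, ALDH1B1, ALDH2, ALDH3A1, ALDH3A2, ALDH7A1, ALDH9A1 and ALDH18A1. They were taken by symbol from a count table of 58037 gene IDs, and all 10 were found. The other 9 genes of the 19-gene human family served as a comparison. The cells were OVCAR8, an established human ovarian carcinoma line, so each group is 1 line grown in culture. One group received recombinant human relaxin-2 (RLN2), a peptide hormone related to insulin, at 50 ng/mL for 8 hours (3 libraries, replicates 1 to 3). The other group was left untreated (3 libraries, replicates 2 to 4). Cells of both groups had first been held in serum-free medium for 16 hours, and total RNA was sequenced. The sample labels give no further time in culture for the untreated group.

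As background, the ALDH1A enzymes turn retinal into retinoic acid, the ligand of the retinoic acid receptors. Mitochondrial members such as ALDH2 clear acetaldehyde and aldehydes from lipid peroxidation, and others serve a single amino acid, lipid or carnitine pathway. ALDH enzyme activity is widely used to sort stem-like cells from ovarian tumours, and ALDH1A1 is the gene most often linked to it there.

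Reads assigned to genes ran from 11939148 to 22426768 per library. Levels are given as CPM, the count of a gene per 1000000 gene reads after scaling. Whether the triplicates came from separate cultures is not stated in the labels, so p-values reflect only how far these libraries varied, which may be technical variation. A pair of libraries stood apart. In relaxin-2 replicate 2 multimapping reads made up 27.0% of all reads, against 6.19% or less in the others. In untreated replicate 2 the 8 epithelial and ovarian markers summed to 1488 CPM, against 2333 to 2829 CPM in relaxin-2 libraries and 2437 and 2534 CPM in the other untreated libraries. Among them KRT8, KRT18, KRT7, EPCAM and PAX8 were expressed in every library, while KRT19 and MUC16 had 4 reads each over all 6 libraries. CDH1 was low, with 102 reads in all and 0.630 to 1.44 CPM. The 5 leukocyte markers summed to 0.390 to 0.697 CPM in relaxin-2 and 0.351 to 0.577 CPM in untreated libraries, the 5 endothelial markers to 2.11 to 2.87 and 1.71 to 2.31 CPM, and the 5 fibroblast markers to 17.9 to 18.8 and 10.7 to 18.3 CPM. The 4 mesothelial markers summed to 33.1 to 47.6 CPM in relaxin-2 and 11.4 to 32.6 CPM in untreated libraries. MSLN gave most of this sum, with 3173 reads in all, followed by LRRN4 with 318, and the groups overlapped for MSLN. LRRN4 had 3.23, 3.31 and 3.64 CPM after relaxin-2, against 2.21, 1.93 and 2.83 CPM untreated. All its relaxin-2 libraries lay above all untreated libraries, as in 10.8% of all tested genes. Its log2 fold change was 0.56, with 0.54 without untreated replicate 2 and -0.06 with offsets for GC content and length. Of the 19 leukocyte, endothelial, fibroblast and mesothelial markers, DCN, CLDN5 and CD3E had 0 reads. Most of the fibroblast sum came from PDGFRB, with 1690 reads in all, followed by LUM with 157, while VWF had 79, KDR 78 and PECAM1 74 reads of the endothelial markers. Their part in the results below was not tested.

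The family was expressed very unevenly, and the order of its genes was nearly fixed from library to library. To compare genes, CPM values, scaled by edgeR's trimmed mean of M values (TMM), were divided by the length of each gene's principal transcript. On this scale of CPM per kb, over all 6 libraries, ALDH9A1 averaged 34.5 and ALDH18A1 25.4. They were followed by ALDH1B1 at 11.9, ALDH7A1 at 10.2, ALDH3A2 at 6.45, ALDH1A3 at 5.37, ALDH2 at 2.02 and ALDH1A2 at 0.703. ALDH1A1 averaged 0.0105, and ALDH3A1 had 0 reads in every library. Down to ALDH1A1, each gene lay above the next in 6 of 6 libraries, except that ALDH1B1 lay above ALDH7A1 in 5 of 6, with ratios from 0.969 to 1.27. The ranges of that pair over the 6 libraries overlapped, and a difference between the genes was not tested. ALDH1A1 and ALDH3A1 could not be ordered. With all annotated exons as the length, ALDH9A1, ALDH18A1 and ALDH1B1 kept places 1 to 3 and ALDH7A1 moved from place 4 to place 6.

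**Figure D1:**
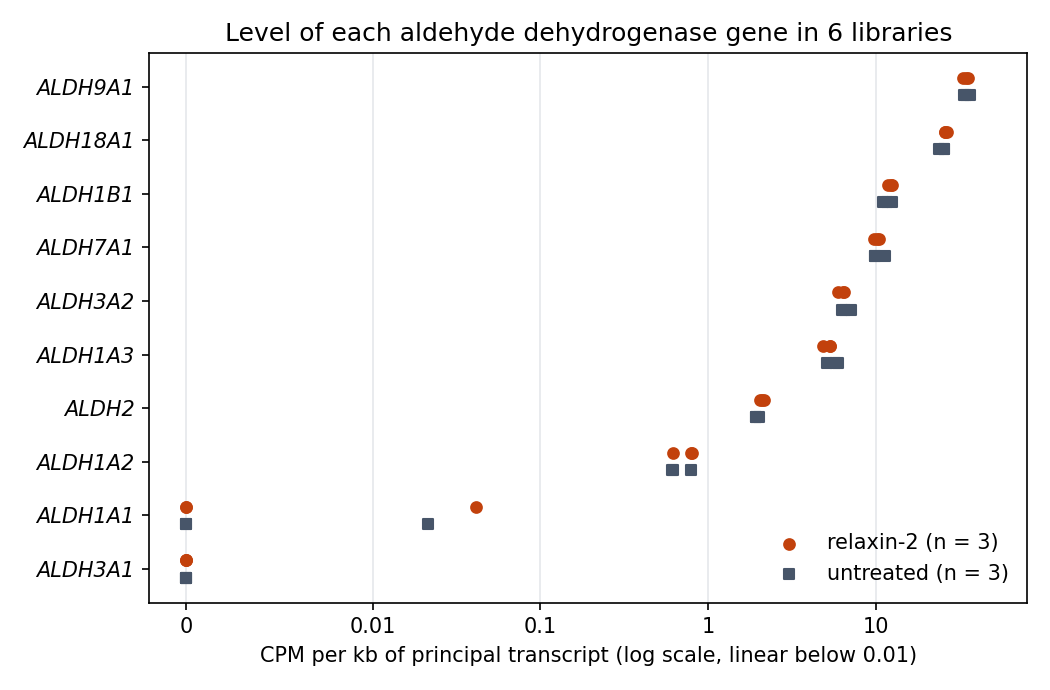
Level of each of the 10 genes in CPM per kb of principal transcript, on a log axis that is linear below 0.01, with 1 point per library (circles, relaxin-2, n = 3; squares, untreated, n = 3). ALDH9A1 sits between 33.1 and 36.5, ALDH1A2 between 0.610 and 0.801, and ALDH3A1 at 0 in all 6 libraries, while the points of both groups lie close together for every gene above ALDH1A1.

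None of the 10 genes passed the test for a difference after relaxin-2. Of the 10, 8 had enough reads to be tested, 4 with a log2 fold change above 0 (beside 47.8% of all genes tested) and 4 below, from -0.11 for ALDH1A3 to 0.16 for ALDH1A2. Their median was 0.02, beside -0.01 over all 16740 genes tested. The adjusted p was 0.556 or more in edgeR's quasi-likelihood test with Benjamini-Hochberg adjustment over all genes tested, where 0% of genes were called. At an unadjusted p under 0.05 there were 0 of the 8 genes, by edgeR, DESeq2 and limma-voom alike, against 10.8% of all genes in edgeR (6.3% higher and 4.52% lower after relaxin-2). In bulk RNA, fewer cells that express a gene and less of its RNA per cell cannot be told apart.

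The spread between libraries was small, so the intervals are narrow. The coefficient of variation over all 6 libraries ran from 3.57% for ALDH9A1 to 13.9% for ALDH1A2, beside a median of 13.8% over all tested genes. The genes behind this median were not matched to the members by read count. For 7 of the 8 tested genes the 95% interval of the fold change lay within 1.3-fold in either direction. The exception was ALDH1A2, with the fewest reads, whose interval ran from 0.825 to 1.503 times the untreated level. These intervals hold for this fit only and do not cover the choice of processing. With offsets for GC content and length, ALDH1B1 had a log2 fold change of -0.25, outside its interval of -0.14 to 0.27. Summed over the 10 genes, the libraries held 338, 337 and 331 CPM after relaxin-2, against 338, 333 and 329 CPM untreated. The sum averaged 335 ± 3.43 CPM after relaxin-2 and 333 ± 4.70 CPM untreated (SD, n = 3 each).

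**Figure D2:**
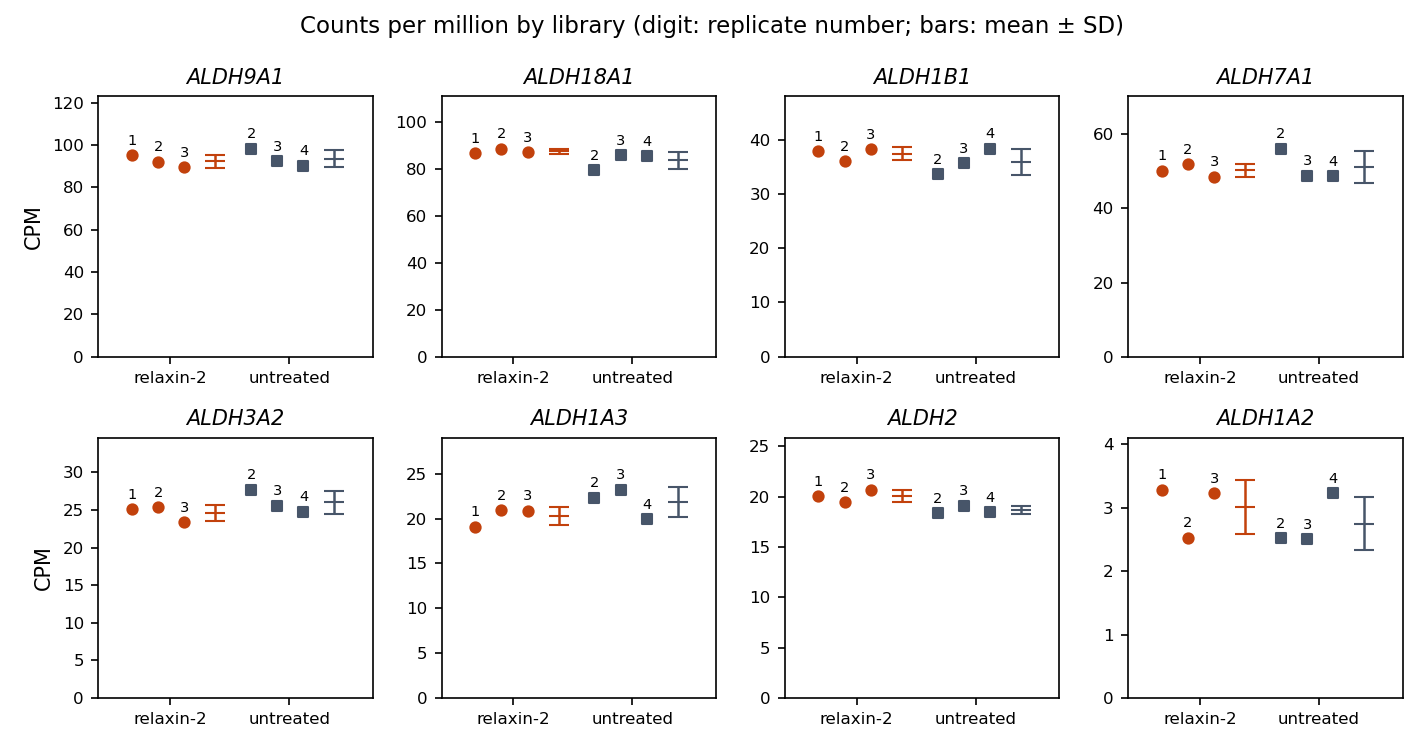
CPM of the 8 tested genes in each library (circles, relaxin-2; squares, untreated; digits, replicate numbers), with the mean ± SD of the 3 libraries of each group beside the points and axes that start at 0. The groups overlap in 6 of the 8 panels, and untreated replicate 2 is the highest or lowest point in 6 of them.

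Among the retinal-oxidising enzymes, ALDH1A1 (ENSG00000165092.12, chromosome 9, 72900662 to 73080442, GRCh38) was all but undetected. It had 0, 1 and 0 reads in relaxin-2 replicates 1 to 3, against 1, 0 and 0 reads in untreated replicates 2 to 4. These 2 reads among 113628275 gene reads give 0.0176 CPM, with an exact 95% Poisson interval from 0.00213 to 0.0636 CPM that covers counting error only. At this depth the groups could not be told apart.

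ALDH1A2, which makes retinoic acid in the embryo (ENSG00000128918.14, chromosome 15, 57953424 to 58497866), was present at a low level. It had 59, 29 and 71 reads in relaxin-2 libraries, against 56, 57 and 56 reads in untreated libraries. As CPM these were 3.28, 2.53 and 3.23 after relaxin-2, against 2.52, 2.50 and 3.23 untreated. Each group held values near 2.5 and near 3.2, and the groups overlapped. The log2 fold change was 0.16 ± 0.19 (SE; edgeR adjusted p = 0.646).

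ALDH1A3, a retinal-oxidising enzyme linked to ALDH activity in several carcinomas (ENSG00000184254.16, chromosome 15, 100877714 to 100916626), accounted for most of this group's mRNA. It made up 85.9% to 90.6% of the summed CPM per kb of the 3 ALDH1A genes, depending on the library. Its level was 19.1, 20.9 and 20.9 CPM after relaxin-2, against 22.3, 23.2 and 19.9 CPM untreated. The lowest value was in relaxin-2 replicate 1 and the highest in untreated replicate 3, and untreated replicate 4 lay below relaxin-2 replicates 2 and 3. The log2 fold change was -0.11 ± 0.11 (SE; edgeR adjusted p = 0.587). On the strand opposite to ALDH1A3, where the annotation places an antisense gene that overlaps 1585 bases of its exons, there were 38, 13 and 40 reads in relaxin-2 and 36, 52 and 28 in untreated libraries. These were 7.90% of the reads of both strands, and the libraries were counted by strand.

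The promoters of an all but undetected gene and an abundant gene are shown for their unlike base make-up. They are from RefSeq (GRCh38.p14), on the strand of the gene, from 250 to 11 bases before its start, with every CG dinucleotide in capitals. ALDH1A1 is chr9:72953064-72953303 on the minus strand, at a RefSeq start that lies inside the longer GENCODE span given above, and ALDH18A1 is chr10:95656722-95656961 on the minus strand.
ALDH1A1: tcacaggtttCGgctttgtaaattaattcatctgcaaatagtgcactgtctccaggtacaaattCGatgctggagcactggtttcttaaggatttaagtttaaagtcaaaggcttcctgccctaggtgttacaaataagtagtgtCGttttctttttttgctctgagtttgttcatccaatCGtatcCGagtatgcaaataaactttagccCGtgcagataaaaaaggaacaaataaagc
ALDH18A1: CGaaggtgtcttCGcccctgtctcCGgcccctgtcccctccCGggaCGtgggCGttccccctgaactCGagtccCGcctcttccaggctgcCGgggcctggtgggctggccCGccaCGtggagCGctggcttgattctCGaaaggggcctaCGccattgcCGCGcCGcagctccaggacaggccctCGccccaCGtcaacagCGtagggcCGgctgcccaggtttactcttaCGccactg

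The ALDH1A1 window held 6 CG dinucleotides in 240 bases and 37.9% G or C, and the ALDH18A1 window 22 and 69.6%. The median over 35114 RefSeq windows of the same length was 10 CG dinucleotides. Number of CG dinucleotides and level did not run in the same order, since ALDH1A3 had 37, ALDH1B1 21, ALDH9A1 19 and ALDH7A1 11. ALDH1A2 and ALDH3A2 have a pair of listed starts each, with 31 and 1, and with 9 and 21. Most of these other windows overlap annotated exons, so their letters are not shown. For ALDH2 and ALDH3A1 no window was available, so they are not part of this comparison. The letters CCAAT, searched on both strands, were present in ALDH1A1 and absent from the ALDH18A1 window, and 31.4% of all windows hold them. GGGCGG and TATAAA, searched likewise, were in neither of the windows shown and are in 41.4% and 10.6% of all windows. Such matches describe letters and not binding.

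Mitochondrial ALDH1B1 and ALDH2 both oxidise acetaldehyde. ALDH1B1 (ENSG00000137124.7, chromosome 9, 38392664 to 38398661) had 37.9, 36.0 and 38.2 CPM after relaxin-2, against 33.6, 35.6 and 38.3 CPM untreated. Untreated replicate 4 was its highest library and untreated replicate 2 its lowest, so the groups overlapped. Its log2 fold change was 0.06 ± 0.09 (SE; edgeR adjusted p = 0.706). ALDH2 (ENSG00000111275.12, chromosome 12, 111766887 to 111817529) was lower per kb, although its long transcript of 9569 bases gathered 2201 reads in all. It had 20.03, 19.4 and 20.7 CPM after relaxin-2, against 18.4, 19.1 and 18.5 CPM untreated. All relaxin-2 libraries lay above all untreated libraries, as in 10.8% of all tested genes. The difference was small and did not pass, with a log2 fold change of 0.11 ± 0.10 (SE; edgeR adjusted p = 0.556). GENCODE 29 places further genes on the same strand over 680 bases of the ALDH2 exons, 103 of ALDH9A1 and 63 of ALDH1A3. Reads there may have been left uncounted as ambiguous, which was not measured.

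The ALDH3A pair on chromosome 17 showed opposite states. ALDH3A1, an enzyme abundant in cornea (ENSG00000108602.17, 19737984 to 19748943), lies 60385 bases from ALDH3A2 (ENSG00000072210.18, 19648136 to 19677598), the fatty aldehyde dehydrogenase of the endoplasmic reticulum. Not 1 read of ALDH3A1 was counted in any of the 6 libraries, for which the exact 95% Poisson upper limit is 0.0325 CPM and a floor of 3 counts over all gene reads is 0.0264 CPM, for counting error only. ALDH3A2 had 25.1, 25.4 and 23.4 CPM after relaxin-2, against 27.7, 25.6 and 24.8 CPM untreated. Its highest library was untreated replicate 2 and its lowest relaxin-2 replicate 3, with overlap between them. The log2 fold change was -0.08 ± 0.10 (SE; edgeR adjusted p = 0.644).

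ALDH9A1, ALDH7A1 and ALDH18A1 act in carnitine and amino acid pathways. ALDH9A1, which oxidises an aldehyde on the way to carnitine (ENSG00000143149.12, chromosome 1, 165662216 to 165698863), had 95.2, 92.2 and 89.4 CPM after relaxin-2, against 98.3, 92.2 and 90.3 CPM untreated. The groups overlapped almost fully, and the log2 fold change was -0.02 ± 0.07 (SE; edgeR adjusted p = 0.872). ALDH7A1, which acts in lysine breakdown (ENSG00000164904.16, chromosome 5, 126531200 to 126595418), had 50.2, 51.9 and 48.6 CPM after relaxin-2, against 56.2, 48.9 and 48.7 CPM untreated. Untreated replicate 2 alone stood above the others, and the log2 fold change was -0.03 ± 0.09 (SE; edgeR adjusted p = 0.860). ALDH7A1 has processed pseudogenes, of which ALDH7A1P1 had 2 to 8 reads per library, and reads that fit several places are not counted, so its level is uncertain.

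ALDH18A1 makes the precursor of proline from glutamate (ENSG00000059573.8, chromosome 10, 95605929 to 95656706). It had 86.6, 88.5 and 86.9 CPM after relaxin-2, against 79.3, 85.8 and 85.2 CPM untreated. All relaxin-2 libraries lay above all untreated libraries, the nearest values being 86.6 CPM in relaxin-2 replicate 1 and 85.8 CPM in untreated replicate 3. The log2 fold change was 0.07 ± 0.07 (SE; edgeR adjusted p = 0.584). With ALDH2 it was 1 of 2 among the 8 genes whose groups did not overlap, beside 21.4% of all tested genes.

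Untreated replicate 2 set much of the spread. It was the lowest library for ALDH18A1, ALDH1B1 and ALDH2 and the highest for ALDH9A1, ALDH7A1 and ALDH3A2. Without it the log2 fold change was 0.03 for ALDH18A1, 0.04 for ALDH7A1 and 0.01 for ALDH9A1, so that 6 of the 8 were above 0. With offsets that remove each library's trend on transcript GC content and length, ALDH1A3 was -0.35 and ALDH1B1 -0.25, the tested members with the highest GC content (55.8% and 57.5%). These were the only members under an unadjusted p of 0.05 in any alternative, and their edgeR adjusted p with the offsets was 0.429 and 0.466.

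**Figure D3:**
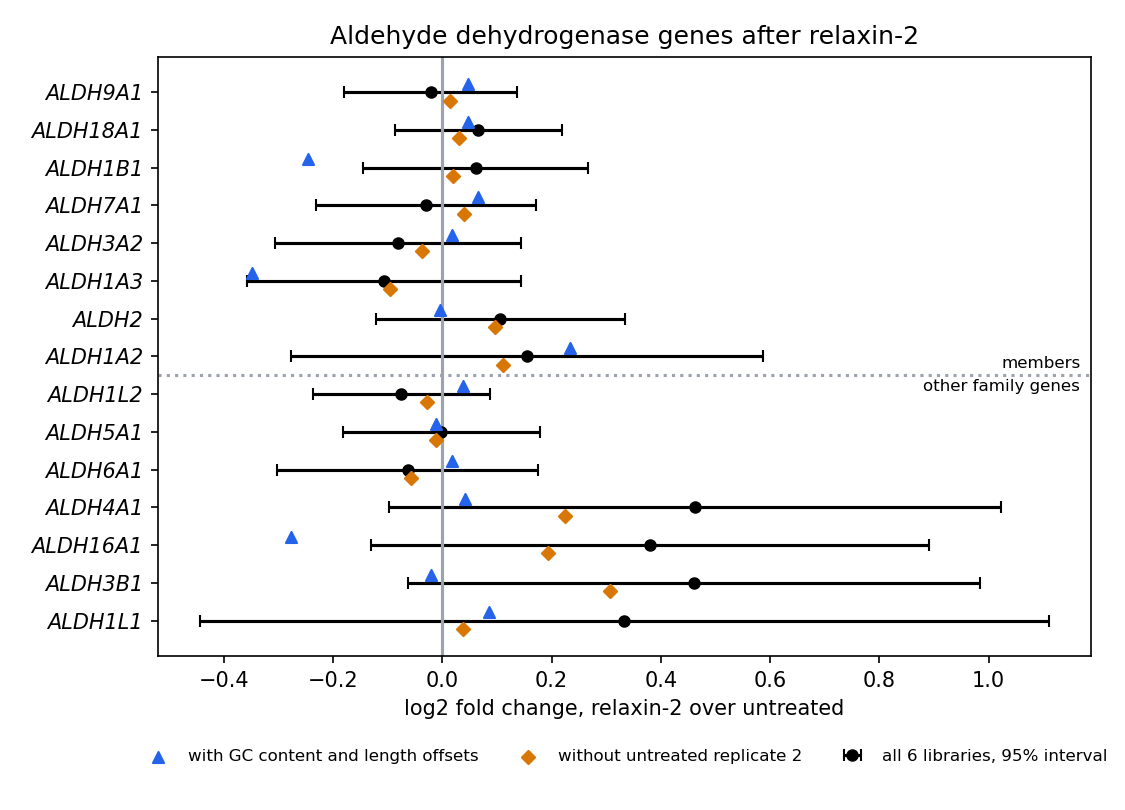
Log2 fold change of relaxin-2 over untreated for the 8 tested genes (upper part) and the 7 tested genes among the other 9 of the family (lower part), ordered by level. Black points with bars are the fit of all 6 libraries with its 95% interval, triangles the fit with GC content and length offsets, and diamonds the fit without untreated replicate 2. All 15 bars cross 0, and the triangles of ALDH4A1, ALDH16A1 and ALDH3B1 lie far to the left of their black points. The triangles of ALDH1B1 and ALDH16A1 lie outside their bars.

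Set beside the rest of the family, the 10 genes held 62.7% to 64.0% of the family's summed CPM per kb in each library. ALDH9A1 and ALDH18A1 contributed 22.7% and 16.7% on average. Next came ALDH1L2, a mitochondrial folate enzyme, at 15.9%, and ALDH5A1, which clears succinic semialdehyde in the breakdown of GABA, at 13.97%. ALDH9A1 held place 1 and ALDH5A1 place 4 in all 6 libraries, while ALDH18A1 and ALDH1L2 exchanged places 2 and 3. The place of ALDH5A1 depended on the length used. With all annotated exons as the length it averaged 8.72 CPM per kb, below ALDH1B1 at 11.6.

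**Figure D4:**
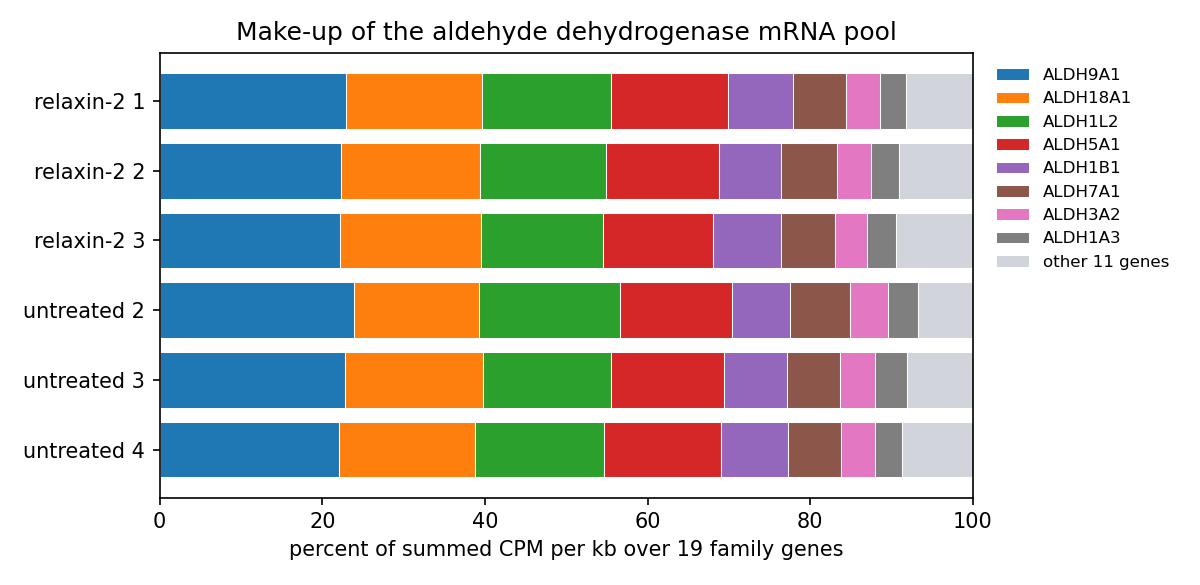
Share of each gene in the summed CPM per kb of the 19 family genes, 1 bar per library with relaxin-2 replicates 1 to 3 above untreated replicates 2 to 4. ALDH9A1 holds 22.04% to 23.9% and ALDH18A1 15.4% to 17.3% of every bar.

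Among the other 9 family genes 7 were tested, 4 above 0 and 3 below, and 0 were called by edgeR, with 0 at an unadjusted p under 0.05. Their median log2 fold change was 0.33, but it was 0.02 with the offsets and 0.04 without untreated replicate 2. The smallest p belonged to ALDH3B1 and ALDH4A1, enzymes of membrane lipid aldehydes and of proline breakdown. ALDH3B1 had 4.28, 7.06 and 5.36 CPM after relaxin-2, against 3.20, 4.17 and 4.67 CPM untreated (log2 fold change 0.46 ± 0.23, SE; edgeR adjusted p = 0.408). ALDH4A1 had 6.68, 8.54 and 7.64 CPM after relaxin-2, against 3.60, 6.01 and 6.98 CPM untreated (0.46 ± 0.24; edgeR adjusted p = 0.408). The groups overlapped in both, and with the offsets the values were -0.02 and 0.04. ALDH4A1 shares 1517 exon bases with a further gene on its strand, so its level is uncertain. For ALDH3B1 the opposite strand held 38.9% of the reads of both strands. The abundant ALDH1L2 (-0.08 ± 0.07) and ALDH5A1 (-0.0018 ± 0.08) lay within the range of the 8 tested members.

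The retinoid pathway around the ALDH1A enzymes had 22 listed genes, of which 17 were tested, 11 above 0, 6 below and 0 called. At an unadjusted p under 0.05 there were 3, beside 10.8% of all genes. The groups did not overlap in 5 of the 17, beside 21.4% of all tested genes, and RXRA and CRABP2 were among these. RXRA, a retinoid X receptor, had 30.3, 36.4 and 34.9 CPM after relaxin-2, against 14.1, 24.2 and 26.9 CPM untreated, with untreated replicate 2 far below the rest. Its log2 fold change was 0.64 ± 0.22 (SE; edgeR adjusted p = 0.408), but 0.06 with the offsets and 0.40 without untreated replicate 2. CRABP2, which carries retinoic acid to its receptors, had 11.7, 12.02 and 12.6 CPM after relaxin-2, against 7.25, 10.1 and 10.2 CPM untreated. Its log2 fold change was 0.40 ± 0.16 (SE; edgeR adjusted p = 0.408), with 0.17 under the offsets and 0.26 without untreated replicate 2. RDH11, a retinal reductase, and FABP5, a fatty acid and retinoic acid carrier, had the highest levels per kb (66.2 and 47.4 CPM per kb) and log2 fold changes of -0.09 ± 0.08 and 0.13 ± 0.14.

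Other routes for aldehydes gave 11 tested of 20 listed genes, 4 above 0, 7 below and 0 called, with 0 at an unadjusted p under 0.05 in edgeR. ADH5, which clears formaldehyde bound to glutathione, and AKR1B1, aldose reductase, had the highest levels, 74.7 and 71.0 CPM per kb, and log2 fold changes of -0.11 ± 0.07 and 0.12 ± 0.09. The smallest p belonged to AKR1A1, an aldehyde reductase (0.21 ± 0.12, but 0.05 with the offsets), and AKR1C2 (-0.49 ± 0.29), whose close copies AKR1C1 and AKR1C3 make its reads uncertain. AKR1A1 was the 1 of the 11 whose groups did not overlap, beside 21.4% of all tested genes.

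Around ALDH18A1, 8 of 9 genes of proline and glutamate metabolism were tested, 4 above 0, 4 below and 0 called. At an unadjusted p under 0.05 in edgeR there was 1, beside 10.8% of all genes. This was ASNS, asparagine synthetase, at 273, 255 and 271 CPM after relaxin-2, against 320, 291 and 296 CPM untreated. All its relaxin-2 libraries lay below all untreated libraries, as in 10.5% of all tested genes, and the log2 fold change was -0.18 ± 0.07 (SE; edgeR adjusted p = 0.408), with -0.07 under the offsets. PYCR1, the next step towards proline, had 68.7, 83.4 and 78.2 CPM after relaxin-2, against 36.9, 65.4 and 64.7 CPM untreated (0.46 ± 0.21, SE). With the offsets it was -0.05, and without untreated replicate 2 it was 0.23. ASNS and PYCR1 were the 2 of the 8 genes whose groups did not overlap, beside 21.4% of all tested genes. OAT, which joins ornithine to the proline route, had 56.9 CPM per kb and a log2 fold change of -0.15 ± 0.08, with -0.0039 under the offsets.

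Around ALDH7A1 and ALDH9A1, 7 of 9 genes of lysine, betaine and carnitine metabolism were tested, 2 above 0, 5 below and 0 called, with 0 at an unadjusted p under 0.05 in edgeR. The lysine enzymes AASS (10.97 CPM per kb) and AADAT (7.09 CPM per kb) had log2 fold changes of -0.04 ± 0.09 and -0.19 ± 0.14, and GCDH, of the same route, had 0.35 ± 0.24, with -0.04 under the offsets. Without untreated replicate 2 the list had 4 above 0 and 3 below. Of 12 markers used beside ALDH activity for stem-like cells 5 were tested, 1 above 0, 4 below and 0 called, again with 0 at an unadjusted p under 0.05 in edgeR. That balance turned to 4 above and 1 below with the offsets, 3 and 2 without untreated replicate 2, and 5 and 0 with 1 surrogate variable. CD44 (90.0 CPM per kb) and CD24 (69.5 CPM per kb) were abundant, with log2 fold changes of -0.03 ± 0.07 and -0.09 ± 0.08, and BMI1 had -0.16 ± 0.16 but -0.0012 without untreated replicate 2. PROM1, a further such marker, had 9 reads over all 6 libraries and KIT 3.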

How the data were processed

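The deposited files hold whole-number counts per gene for a stranded total RNA kit, aligned with STAR to hg38, per the submitters' processing notes. The STAR version is not given in the sources used here, nor is its annotation. The authors' reverse-strand column was used, since it held 17.8 to 19.8 times the reads of the forward column. It equals the authors' merged count table in all 24635 shared gene IDs. Reads in no gene, ambiguous, unmapped or multimapping stayed out of library sizes. Coordinates, transcript lengths and overlaps are from GENCODE 29 (GRCh38), which matched 57433 of 58037 IDs and may not be the authors' release.

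All 6 libraries entered 1 edgeR 4.0.16 quasi-likelihood fit with treatment as the term, edgeR's default filter and TMM scaling, in R 4.3.3 with two-sided tests. The threshold was a Benjamini-Hochberg adjusted p under 0.05. The step was tested on simulated data. DESeq2 1.42.0, limma-voom 3.58.1, sva 3.50.0, other scalings, filters and count columns, offsets and left-out libraries were the alternatives, 19 in all. Python 3.11.15 with pandas 2.3.3 and matplotlib 3.10.9 made tables and figures.

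The members and lists were chosen with earlier results of these data known. Besides all members, the text names from each pathway list the 2 genes with the smallest p and the 2 with the highest level. The marker genes, ALDH1A3's antisense gene, PROM1, KIT, ALDH16A1, AKR1C1, AKR1C3 and the pseudogene were named after their values were seen.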

Additional observations from a re-analysis of the deposited data

Results flagged for a closer look

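ALDH3A2 was flagged because its few reads outside the counted strand separated the groups, so that separation is no independent evidence. Reads on the opposite strand averaged 0.0779 CPM in relaxin-2 libraries (1, 1 and 2 reads), above the 0 reads of all 3 untreated libraries. With 4 reads in all, this is close to the floor of 3 counts and no fold was computed. These 4 reads were 0.138% of the reads of both strands. Outside the members, the family gene ALDH16A1 separated likewise in CPM, on 8 opposite-strand reads in all. The share of all genes with such a separation on that strand was not computed.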

How the results depend on the processing

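In each of the 19 alternatives 0 of the 10 genes were called, and the largest log2 fold change in size was -0.35, for ALDH1A3 with GC content and length offsets. ALDH18A1, ALDH1A2 and ALDH1A3 kept their direction in all 19. With the offsets, ALDH1B1 (-0.25), ALDH2 (-0.0036), ALDH3A2 (0.018), ALDH7A1 (0.066) and ALDH9A1 (0.047) changed sign. With 1 surrogate variable ALDH7A1 was 0.071 and ALDH9A1 0.046, and without both libraries numbered 2 they were 0.026 and 0.024. Leaving out 1 library at a time gave -0.065 to 0.039 for ALDH7A1 and -0.050 to 0.015 for ALDH9A1. The cause was not tested. Over all genes, 0 were called in the fit of all 6 libraries, 120 with no filter on low counts, 7 with 1 surrogate variable, 3 without both libraries numbered 2 and 0 to 3 when leaving out 1 library, the 3 being without untreated replicate 2. With the replicate number as a block 1 gene was called and 0 of the members. The labels give no pairing, and the deviations of same-numbered libraries correlated at -0.30 for number 2 and 0.11 for number 3. At this depth ALDH1A1 and ALDH3A1 allow no comparison, and ALDH1A2 only a wide one.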
